A study of Saccharomyces cerevisiae with 5 samples.

Results

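The comparison described here sets the yeast strain bdf1Δ, in which BDF1 is deleted, against W303, a common laboratory strain, on 1 two-colour oligonucleotide array of Saccharomyces cerevisiae. The array was chosen by its title, and every gene spot on it was used. It carries 6388 gene probes in 19164 spots, 3 repeat spots per gene, and is 1 of the 5 arrays of the series. bdf1Δ was labelled with Cy5 and W303 with Cy3. Both strains had received 0.5 mol/L NaCl for 45 min, so the comparison is between strains under salt and holds no unstressed culture. The other 4 arrays set bdf1Δ+HAL2 and bdf1Δhda1Δ against bdf1Δ under the same salt treatment. According to the labels, each pair of samples was hybridised a second time with the dyes exchanged. The array with W303 in Cy5 was not analysed here, so a difference between strains and a difference between dyes cannot be told apart. The labels do not give how BDF1 was deleted, the mating type, or how many cultures or clones the RNA came from.

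BDF1 encodes a protein with 2 bromodomains, modules that bind acetylated lysines on histone tails. Bdf1 associates with TFIID, the general factor that recognises promoters for RNA polymerase II, and with the SWR1 complex, which places the histone variant H2A.Z next to promoters. BDF2 is its paralogue. Under high salt, yeast activates the Hog1 kinase pathway, makes glycerol as an internal osmolyte, pumps out sodium and for a time represses genes of ribosome production.

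All values are log2 ratios of bdf1Δ over W303, so a positive value is higher in bdf1Δ. Each ratio was computed after a global loess fit over the whole array and again after a loess fit within each of the 48 printing blocks, and the pair is given in that order. A gene was taken as measured when at least 2 of its 3 spots had been found by the image software and exceeded their background by 2 background SDs in both channels. It is called higher or lower when it passed 2-fold in the same direction under both fits. An SD is the spread over the repeat spots of a gene. These lie side by side in one block, so the SD covers neither the position on the slide nor any biological variation. With 1 array no test is possible and no p-value is given. The calls describe this hybridisation, and the single array limits the precision of every value.

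Signal above background was seen for bdf1Δ at 36.9% of the gene spots, against 91.2% for W303. Before normalization, but after background correction, the median log2 ratio over the gene spots found by the image software was −1.84. A gene with equal net intensity in both channels therefore lies well above the typical gene of this array. The weakness of bdf1Δ was uneven over the slide. In the 11 blocks numbered 38 to 48, 0.521% to 6.47% of the gene spots exceeded background in bdf1Δ, against 73.8% to 91.1% in W303. In the other 37 blocks the shares were 12.2% to 76.4% in bdf1Δ and 80.6% to 98.2% in W303. Block medians of the unnormalized log2 ratio ran from −3.02 to −0.07. The share of the variance of the log2 ratio that lay between blocks was 49.7% before normalization, 35.9% after global loess and 0.427% after the fit per block. On the other 4 arrays 42.8% to 87.3% of the gene spots exceeded background in bdf1Δ. Spots found by the image software made up 58.5%, and 0 were saturated in either channel.

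**Figure D1:**
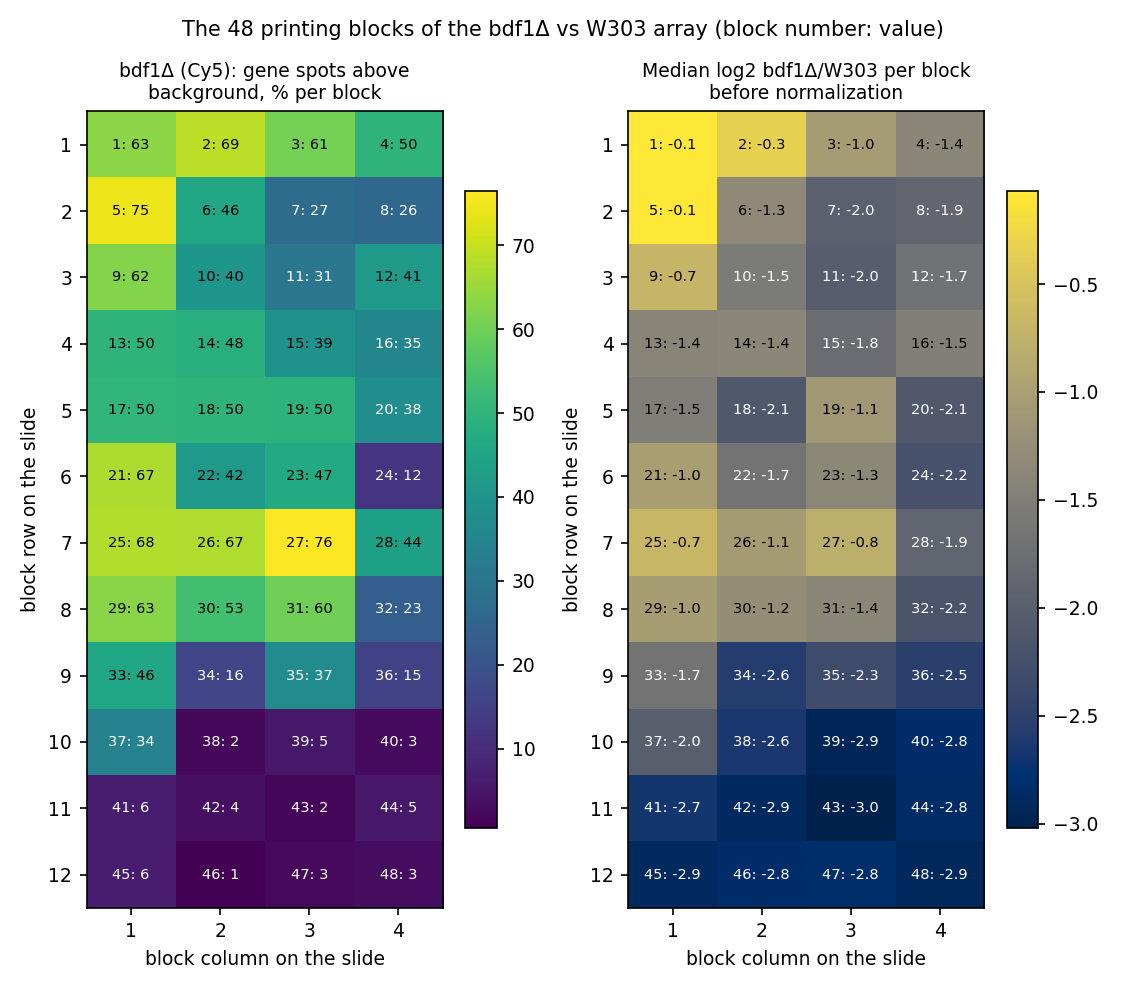
The 48 printing blocks laid out as on the slide, with the percentage of gene spots above background in bdf1Δ (left) and the median log2 ratio of bdf1Δ over W303 before normalization (right). Each cell gives the block number and its value. Blocks 38 to 48 at the bottom hold 0.521% to 6.47% of spots above background in bdf1Δ, and the block medians run from −3.02 to −0.07.

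The deleted gene was checked first. BDF1 (YLR399C) gave net intensities of 7, 19 and 10 in bdf1Δ, against 577.5, 504 and 510 in W303. All 3 spots exceeded background in W303 and 0 of 3 did in bdf1Δ. The same pattern was seen for genes that are not deleted. MET22, known in the salt field as HAL2, encodes a salt-sensitive phosphatase and gave 12, 15 and 27 in bdf1Δ, against 623, 527 and 580 in W303. BDF2 gave 34, 47 and 39 in bdf1Δ and 148, 154 and 157 in W303, and 0 of its bdf1Δ spots exceeded background. HDA1, a histone deacetylase subunit, gave 15, 31 and 36 in bdf1Δ and 160, 171 and 176 in W303. MET22 and BDF2 lie in blocks 40 and 39, where 2.60% and 5.40% of gene spots exceeded background in bdf1Δ. BDF1 lies in block 13, where 49.9% did. HDA1 lies in block 10, where 40.4% did, but it was also dimmer than BDF1 in W303. The absence of BDF1 signal in bdf1Δ goes with its label. Because the other genes differ from BDF1 in slide position or W303 intensity, they do not show how unusual its loss of signal is.

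Of the 6388 genes, 2117 (33.1%) were measured in both strains, 1647 of them on all 3 spots and 470 on 2. The other 4271 were not. Both fits gave the same sign for 1557 of the measured genes (73.5%), 1002 above 0 and 555 below, and opposite signs for 560. Passing 2-fold under both, 166 genes (7.84% of those measured) were higher in bdf1Δ and 98 (4.63%) were lower. Past 4-fold under both stood 7 higher and 9 lower genes. The other 1853 measured genes did not pass under both in one direction, among them 2 that passed 2-fold in opposite directions. The 2 fits correlated at a Pearson r of 0.66 across genes, which share the array and are not independent replicates. The median of all measured genes was 0.42 after global loess and 0.09 after the fit per block. Another normalization, a smooth surface over spot position, kept 128 of the 166 higher genes and 98 of the 98 lower ones past 2-fold, but in place of the fit per block gave 172 higher and 248 lower genes in all. The authors' deposited ratio, centred on array and block medians, gave 260 and 241. Centring each block on its own control spots of ACT1, actin, which moved the median of all measured genes to 1.77, gave 440 higher and 16 lower genes and kept 12 of the 98 lower ones. It turned 27 of the 127 called genes examined individually from below to above 0. Among them were ENA1, HXT7, ENO2, SSB2, HMX1, HSP150, IDH2, PDA1, HOM6, ARO4, ERG20 and the Ty reading frames YDR210C-D and YDR210C-C. Median centring of the array and of each block in place of both loess fits kept 152 of the 166 higher and 54 of the 98 lower genes.

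**Figure D2:**
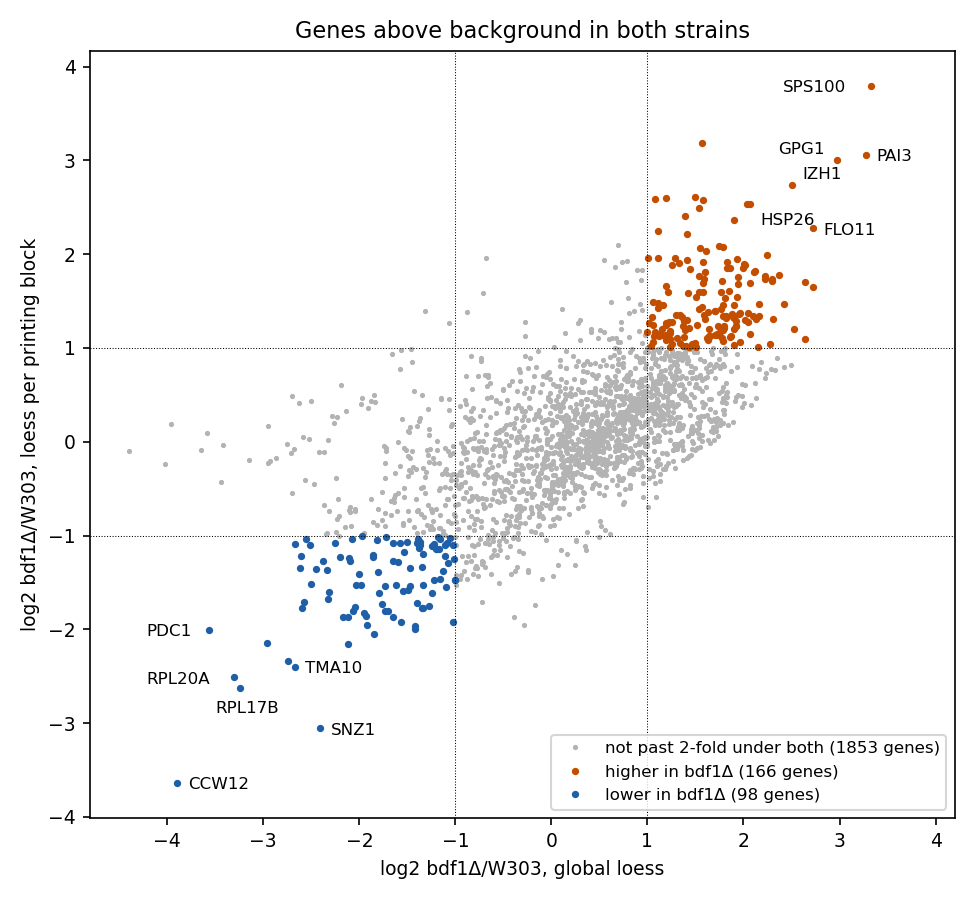
Log2 ratio of bdf1Δ over W303 after global loess (horizontal) and after loess per printing block (vertical), one point for each of the 2117 genes above background in both strains. Dotted lines mark 2-fold, 166 genes lie past it in the upper right corner and 98 in the lower left, and CCW12 and SPS100 stand at the ends.

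The requirement of a bdf1Δ signal shaped both lists, since bdf1Δ was the weaker channel. When the genes were split into tertiles by their W303 net intensity, 13 of 2129 genes (0.611%) were measured in the dimmest tertile, 615 (28.9%) in the middle and 1489 (69.9%) in the brightest. Among the dim genes, those with a high ratio were the ones that could be measured: 11 of the 13 in the dimmest tertile (84.6%) and 94 in the middle tertile (15.3%) were called higher, and 0 were called lower in either. In the brightest tertile 61 genes (4.1%) were higher and 98 (6.58%) were lower. Counts within the brightest tertile, to be read against 4.1% and 6.58%, are therefore given beside the counts of the gene groups below. The 11 weak blocks hold 1464 genes, of which 44 were measured and 1 was called, RRN6 (1.57 and 3.19), a subunit of the core factor of RNA polymerase I.

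At the top of the higher genes stood SPS100 (YHR139C), which encodes a spore wall protein made late in sporulation. Its net intensities were 11179.5, 2724 and 8455 in bdf1Δ, against 1167, 990.5 and 1111 in W303. Every bdf1Δ spot lay above every W303 spot although the typical gene was far weaker in bdf1Δ. The ratios were 3.32 ± 0.82 and 3.80 ± 0.95 (SD, 3 spots), 10.02-fold by the smaller of the 2. PAI3 (YMR174C), the cytosolic inhibitor of the vacuolar proteinase A, gave 5501, 4391 and 5415.5 in bdf1Δ and 861, 916 and 995.5 in W303. Here the spots of each strain agreed closely and did not overlap, and the ratios were 3.28 ± 0.19 and 3.06 ± 0.19. GPG1 (YGL121C), a protein proposed to act as a subunit of the glucose-sensing G protein, gave 2703, 2794 and 4196 in bdf1Δ, against 802, 799 and 702 in W303. Its ratios were 2.97 ± 0.41 and 2.998 ± 0.55, again with no overlap of the strains.

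Inhibitors of other vacuolar proteases stood high as well. PBI2 (YNL015W), the inhibitor of proteinase B, gave 1146, 1590 and 1957.5 in bdf1Δ and 813, 784 and 801.5 in W303, with ratios of 2.04 ± 0.33 and 2.53 ± 0.41. TFS1 (YLR178C), the inhibitor of carboxypeptidase Y, gave 4478.5, 6123 and 7283.5 in bdf1Δ and 2054, 1986 and 2148 in W303, with ratios of 2.23 ± 0.29 and 1.74 ± 0.29. All 3 inhibitors thus had higher net intensities in bdf1Δ on every spot. When the deviation of the ACT1 control spots in their block was removed after global loess, PAI3 stood at 2.42 and PBI2 at 0.98. TFS1 fell to 0.13, so its value depends on the normalization. In the list of vacuolar proteases and inhibitors, 20 genes were on the array, 10 were measured, these 3 were higher and 0 were lower, and 8 had both ratios above 0. The list median was 1.16 and 0.48, beside 0.42 and 0.09 for all measured genes. PRB1, proteinase B itself, stood at 0.90 and 0.64 and was not called. Among the 9 measured members in the brightest tertile, 3 were higher, against 4.1% of all such genes.

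Genes of the general stress response, which the activators Msn2 and Msn4 switch on under many stresses, also stood high. Of 41 listed genes 26 were measured, 8 were higher (30.8%) and 1 was lower, with a median of 0.95 and 0.85. The higher ones were GPG1, the glutamate decarboxylase GAD1 (2.73 and 1.64), the aldehyde dehydrogenase ALD3 (1.93 and 1.95), TFS1, the chaperone-like HSP31 (2.53 and 1.20), the mitochondrial copper and phosphate carrier PIC2 (1.58 and 2.57), FMP16 (1.54 and 1.77) and the membrane protein FMP45 (1.64 and 1.13). ALD3 rested on unequal spots, 754.5, 2232.5 and 3423.5 in bdf1Δ against 944, 1045.5 and 966.5 in W303, so 1 bdf1Δ spot lay below W303 and the other 2 above it. The exception on the list was TMA10, a small protein that associates with ribosomes, described below. Among those not called, the catalase CTT1 gave 1.65 and 0.83, and HSP12, a small membrane-stabilising protein, gave −0.35 and 0.05. In the brightest tertile 6 of 20 measured members were higher and 1 was lower. HSP31 and FMP45 turned to −0.81 and −0.45 when the deviation of the ACT1 control spots in their block was removed.

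Among chaperones, 36 genes were listed, 20 were measured, 5 were higher and 1 was lower, with a median of 0.71 and 0.41. The small heat shock protein HSP26 gave 505, 243 and 244.5 in bdf1Δ and 289, 263.5 and 248.5 in W303. The net intensities of the strains overlapped, and the ratios of 2.06 ± 0.34 and 2.53 ± 0.69 arise against the weaker bdf1Δ channel. The mitochondrial disaggregase HSP78 (1.86 and 1.85), the endoplasmic reticulum Hsp70 KAR2 (1.81 and 1.53), the stress-induced Hsp70 SSA3 (1.38 and 1.28) and the nucleotide exchange factor FES1 (1.20 and 1.08) were higher too. The lower one was SSB2, an Hsp70 that sits on the ribosome and folds new chains. In the brightest tertile 3 of 15 members were higher and 1 was lower.

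**Figure D3:**
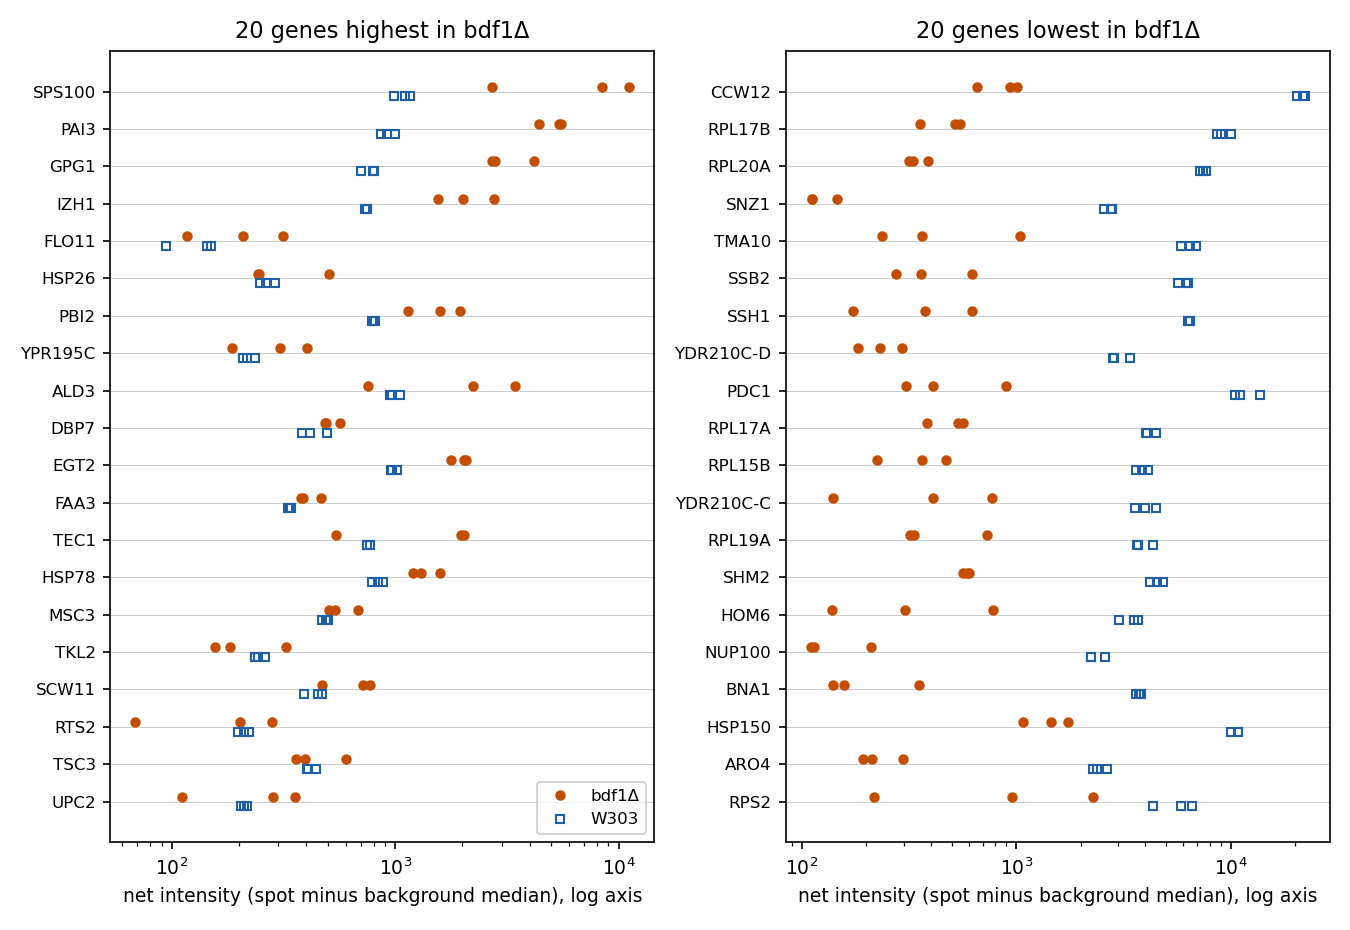
Net intensity (spot median minus background median, log axis) of each repeat spot for the 20 genes highest (left) and the 20 lowest (right) in bdf1Δ by the smaller of their 2 log2 ratios. Filled circles are bdf1Δ and open squares are W303. The strains do not overlap for any of the 20 lowest genes, while for several of the highest, such as HSP26 and TKL2, they do. Net intensities are not normalized, and the typical gene was weaker in bdf1Δ, so separation alone does not mark a lower gene.

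The osmotic stress list was mixed. Of 35 genes 18 were measured, 5 were higher and 1 was lower, with a median of 0.95 and 0.24. Higher were PAI3, the hydrophilin GRE1 (1.41 and 2.22), the dihydroxyacetone kinase DAK1 (1.77 and 1.72), the glycerol dehydrogenase GCY1 (1.92 and 1.23) and STE50 (1.01 and 1.95), an adaptor of the pathway kinase Ste11. GPP1, the phosphatase that completes glycerol synthesis, was lower: it gave 937, 197 and 212.5 in bdf1Δ and 3816.5, 2967.5 and 2991.5 in W303, with ratios of −1.81 ± 0.68 and −1.39 ± 0.90. No bdf1Δ spot of GPP1 reached a W303 spot, but 1 bdf1Δ spot stood well above the other 2. The typical gene of its block was also weaker in bdf1Δ, with a median log2 ratio of −1.55 before normalization. HOG1 itself gave −2.15 and −0.91 and was not called, and the glycerol importer STL1 gave 0.95 and 0.16. Restricted to the brightest tertile, 4 of 12 members were higher and 1 was lower.

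For ion transport, 31 genes were listed and 17 measured, with a median of 0.10 and 0.16. TRK1, the potassium importer, was higher (1.39 and 2.41). ENA1, the sodium pump, gave 466, 229 and 186 in bdf1Δ against 3803, 3321.5 and 3318 in W303, and was lower at −2.20 ± 0.34 and −1.23 ± 0.59. PMP2, a small regulator of the proton pump Pma1, was lower as well (−1.53 and −1.18), and PMA1 stood at −0.81 and −0.94. In the brightest tertile 1 of 14 members was higher and 2 were lower. ENA1 has near-identical neighbouring copies, so its value is uncertain as to the copy.

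Genes of filamentous growth and flocculation held 4 higher and 0 lower of 6 measured, among 19 on the array, with a median of 1.89 and 1.16. FLO11, the adhesin of invasive growth, gave 208, 315 and 117.5 in bdf1Δ and 143, 149 and 94.5 in W303, both weak signals. Its ratios were 2.72 ± 0.20 and 2.27 ± 0.21 on 2 usable spots. The transcription factors TEC1 (1.99 ± 0.81 and 1.85 ± 1.27), PHD1 (2.64 and 1.10) and MSS11 (1.80 and 1.23), which act in the same programme, were higher. With the ACT1 deviation of their block removed, however, PHD1 turned to −0.70 and TEC1 fell to 0.02, while FLO11 stood at 3.66 and MSS11 at 2.02. TEC1 rested on unequal spots, at 541, 1960 and 2040.5 in bdf1Δ and 770, 744 and 748.5 in W303. Only 1 of the 6 lay in the brightest tertile, so the count is one that the filter on bdf1Δ signal can raise.

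Cell wall genes moved both ways. Of 38 on the array 29 were measured, 6 were higher and 4 were lower, with a median of 0.59 and 0.32. The higher ones included EGT2 (2.01 ± 0.10 and 1.89 ± 0.11), SCW11 (2.12 and 1.83) and DSE4 (1.26 and 1.28), glycoproteins and glucanases that part daughter from mother cells, with PIR1 (1.60 and 1.81), SUN4 (2.16 and 1.47) and CRH1 (1.97 and 1.07). EGT2 gave 2067, 2035.5 and 1782.5 in bdf1Δ and 959, 1021 and 972 in W303, with even spots and no overlap. The lower ones were CCW12, CCW14 (−1.10 and −1.22), HSP150 (−2.04 and −1.76) and the glucanase SCW10 (−2.38 and −1.27). Members in the brightest tertile numbered 21, of which 2 were higher and 4 were lower.

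The lower genes were led by CCW12, RPL17B, RPL20A, SNZ1 and TMA10. Many of the leading ones share a printing block: CCW12, RPL17B, RPL20A and SSH1 lie in block 35, and SSB2, YDR210C-D and PDC1 in block 37. Block 35 held 7 higher and 6 lower genes among 46 measured, and block 37 held 14 and 7 among 45. Over all measured genes the shares were 7.84% and 4.63%. The part of slide position in these values was not tested. CCW12 (YLR110C), a major mannoprotein of the cell wall, was the lowest gene of the array by this measure. It gave 655, 1004 and 939.5 in bdf1Δ, against 22265, 21673.5 and 20479 in W303. Its ratios were −3.89 ± 0.31 and −3.64 ± 0.27, with W303 12.4-fold higher by the smaller of the 2. SNZ1 (YMR096W), an enzyme of vitamin B6 synthesis, gave 145.5, 111.5 and 111.5 in bdf1Δ and 2814, 2781 and 2568.5 in W303, with ratios of −2.41 ± 0.09 and −3.06 ± 0.16. TMA10 (YLR327C) gave 362, 237.5 and 1042 in bdf1Δ and 6477, 5889.5 and 6912 in W303, with ratios of −2.67 ± 0.74 and −2.40 ± 0.77. In each of these genes the lowest W303 spot exceeded the highest bdf1Δ spot several times over. The typical gene was also weaker in bdf1Δ. Median log2 ratios before normalization were −2.32 in the block of CCW12, −1.25 in that of SNZ1 and −1.37 in that of TMA10. Separation of net intensities alone therefore does not mark a gene as lower.

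Ribosomal protein genes took the second and the third place. RPL17B, a protein of the large ribosomal subunit, gave 549.5, 355.5 and 520.5 in bdf1Δ and 10071, 9049.5 and 8685 in W303 (−3.24 ± 0.25 and −2.62 ± 0.22). RPL20A was at −3.30 and −2.51, and its 3 spots gave 329, 317.5 and 386.5 in bdf1Δ against 7700, 7203 and 7410 in W303. SSB2 gave 276.5, 625 and 358.5 in bdf1Δ and 5665, 6229 and 6348 in W303 (−2.74 ± 0.40 and −2.33 ± 0.91). Of 136 cytosolic ribosomal protein genes 108 were measured, 0 were higher and 10 were lower: RPL4A, RPL15B, RPL17A, RPL17B, RPL19A, RPL20A, RPL38, RPS2, RPS6A and RPS25A. That is 9.26% of those measured, near the 6.58% of all genes in the brightest tertile, where 107 of the 108 lie. Their median was −0.75 and −0.25, 59 had both ratios below 0 and 18 had both above. Most exist as near-identical pairs, and which copy gave the signal is uncertain, as it is for SSB2 and its twin SSB1. Of 18 measured translation factor genes 0 were lower and 1 was higher, HYP2 (2.27 and 1.04), which turned to −1.06 with the ACT1 deviation of its block removed.

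Glycolysis genes lay mostly below 0. Of 27 genes of glycolysis and fermentation 15 were measured, 0 were higher and 3 were lower, with a median of −0.996 and −0.38. All 15 lie in the brightest tertile. In 12 both ratios were below 0 and in 0 both were above. PDC1, the main pyruvate decarboxylase, gave 898.5, 411.5 and 305 in bdf1Δ and 13705.5, 11110.5 and 10482 in W303, with ratios of −3.56 ± 0.42 and −2.003 ± 1.36. The glyceraldehyde-3-phosphate dehydrogenase TDH2 (−2.61 and −1.22) and the enolase ENO2 (−1.16 and −1.46) were the others, and both have close copies. HXT7, a high-affinity glucose transporter nearly identical to HXT6, gave 305.5, 129.5 and 124 in bdf1Δ and 1961.5, 1893 and 1935 in W303 (−1.57 and −1.93). In the tricarboxylic acid cycle 11 of 25 genes were measured and 2 were lower, the isocitrate dehydrogenase subunit IDH2 (−1.34 and −1.78) and the pyruvate dehydrogenase subunit PDA1 (−1.60 and −1.28), with a median of −0.35 and −0.83 and 10 members in the brightest tertile, which held both lower ones. Other lists of carbon metabolism held fewer measured genes than glycolysis. Among 6 measured genes of gluconeogenesis, glyoxylate and ethanol use 0 were called by the 2-fold rule. Beside 7.84% and 4.63% of all measured genes, 6 are too few to show a difference. Their median was 0.24 and 0.14, and 4 of the 6 lie in the brightest tertile. Of 11 measured trehalose and glycogen genes 5 had both ratios above 0 and 3 both below, and TSL1 (−2.21 and −0.99994) fell just short of the lower call. GPH1 (1.55 and 2.06) and GDB1 (1.02 and 1.27), which degrade glycogen, were higher and 0 of the 11 were lower, with neither of the 2 in the brightest tertile. The transketolases TKL1 (1.11 and 1.47) and TKL2 (1.83 and 1.91) were higher too.

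Amino acid and one-carbon enzymes were among the lowest genes as well. SHM2, the cytosolic serine hydroxymethyltransferase, gave 567, 587.5 and 601.5 in bdf1Δ and 4552.5, 4205.5 and 4828 in W303, with the even ratios of −1.85 ± 0.11 and −2.05 ± 0.10. HOM6, homoserine dehydrogenase (−1.95 and −1.83), and ARO4, which starts aromatic amino acid synthesis (−1.73 and −1.80), were lower too. Over the list of amino acid synthesis genes under the activator Gcn4, however, 34 of 59 were measured, 1 was higher (ARG3, 2.30 and 1.71) and 2 were lower (ARO4 and SER1, −1.05 and −1.03), at or below the background shares. In the brightest tertile 0 of 30 members were higher and 2 were lower. Other genes among the 25 lowest were SSH1, a translocation channel of the endoplasmic reticulum (−2.96 and −2.15), the nucleoporin NUP100 (−2.06 and −1.80), BNA1 of NAD synthesis (−2.59 and −1.78) and TOA2, the small subunit of the general transcription factor TFIIA (−1.65 and −1.87).

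Lipid genes were found in both directions. In fatty acid synthesis and activation 14 of 20 genes were measured, 4 were higher and 0 were lower: FAA3, an acyl-CoA synthetase (2.01 ± 0.10 and 1.88 ± 0.14), FAT3 of fatty acid uptake (2.64 and 1.70), the synthase subunit FAS1 (1.41 and 1.93) and the elongase ELO3 (1.00 and 1.17). The list median was 0.84 and 0.11, the second near the 0.09 of all measured genes, and 2 of 12 members in the brightest tertile were higher. Among 14 of 28 measured ergosterol genes, the sterol regulator UPC2 (2.37 and 1.77), ERG25 (1.53 and 1.41) and the P450 reductase NCP1 (1.21 and 1.27) were higher, while ERG20, farnesyl diphosphate synthase (−2.04 and −1.53), and ERG27 (−1.86 and −1.20) were lower. The 2 lower ones lie in the brightest tertile and the 3 higher ones do not. Of 9 measured genes of inositol and phospholipids, the methyltransferase CHO2 (2.15 and 1.01) was higher and OPI3 (−2.11 and −1.24), which acts after it in phosphatidylcholine synthesis, was lower. OPI3 alone of the 2 lies in the brightest tertile.

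**Figure D4:**
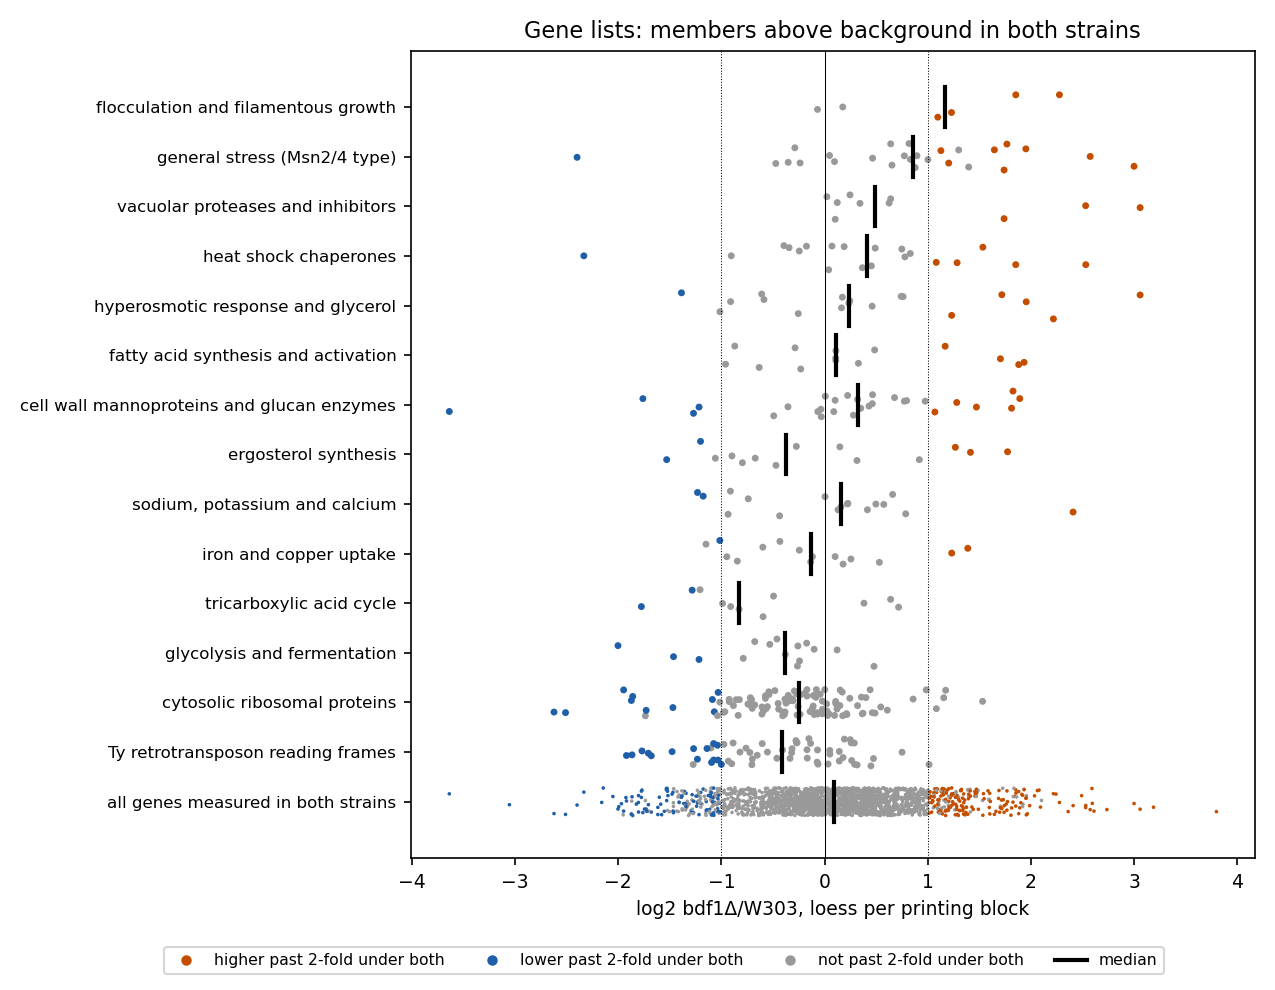
Log2 ratio of bdf1Δ over W303 after loess per printing block for the measured members of 14 gene lists and for all 2117 measured genes; colours mark genes past 2-fold under both fits and black bars are medians. General stress genes have a median of 0.85 and glycolysis genes −0.38, beside 0.09 for all genes.

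Reading frames of the Ty retrotransposons gave the largest share of lower genes among the lists that held any, in a list put together after their values were seen. Of 80 on the array 61 were measured, 0 were higher and 15 were lower (24.6%), with a median of −0.94 and −0.41. Of the 61, 58 lie in the brightest tertile. The leading ones were YDR210C-D (−2.12 and −2.16), YDR210C-C (−2.12 and −1.87) and YBL100W-B (−2.57 and −1.71). The elements are near-identical copies, so these probes may report the same transcripts and are not 15 separate observations.

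Iron and copper genes, the subject of the series' title, showed no common direction. Of 38 on the array 15 were measured, with a median of 0.34 and −0.14. The copper transporter CTR1 (1.92 and 1.23) and the iron regulator AFT2 (1.63 and 1.39) were higher, and the haem oxygenase HMX1 (−1.18 and −1.02) was lower, the last just past the threshold. In the 12 measured members in the brightest tertile 0 were higher and 1 was lower. Among zinc genes 8 of 14 were measured, and IZH1, a membrane protein of zinc homeostasis, and the zinc importer ZRT1 (1.71 and 1.14) were higher, 1 of them among the 3 members in the brightest tertile. IZH1 gave 2777, 2012 and 1548 in bdf1Δ and 746, 750 and 730 in W303 (2.502 ± 0.33 and 2.74 ± 0.49), but turned to −0.58 when the deviation of the ACT1 control spots in its block was removed.

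Of the 28 genes for Bdf1's partners in TFIID and SWR1, with BDF1 and BDF2 counted in, 9 were measured. By the 2-fold rule 0 were called in either direction, beside 7.84% higher and 4.63% lower over all measured genes. Their median was 1.20 and 0.62, and 6 of the 9 had both ratios above 0, beside 1002 of all 2117 measured genes. In the brightest tertile lie 5 of the 9, with 0 called. The rest are dimmer genes, for which the filter on bdf1Δ signal favours high ratios: all measured genes of the middle tertile had a median of 1.08 and 0.41. TAF12, shared by TFIID and the SAGA complex, lay just outside the rule at 1.68 and 0.999. Also just outside was RSC8, of a chromatin remodelling complex (1.14 and 1.00), while ELO3 and LCP5 (1.43 and 1.01) lay just inside. On the lower side CDC36 (−1.01 and −1.47) was just inside, and TSL1 (−2.21 and −0.99994) and BAT1 (−0.9997 and −1.01) just outside.

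As for cell identity, 6 of 7 genes typical of mating type a were measured in both strains, against 1 of 4 typical of mating type α. The a-pheromone genes MFA1 (1.43 and 1.22) and MFA2 (1.08 and 2.59) were higher, and the receptor gene STE2 gave 0.24 and 0.67. Of these, 3 lie in the brightest tertile, where 1 was higher. Of 32 sporulation genes 3 were measured, among them SPS100 and IME2, a kinase of meiotic entry (1.96 and 1.37), both higher. Of the 32, 26 had 0 spots above background in bdf1Δ. IME2, at a median net intensity of 276.5 in W303, lies in the middle tertile, where the filter on bdf1Δ signal favours high ratios, and SPS100 lies in the brightest. The part of cell type in the other results was not tested.

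The array also carries control spots repeated over the slide, which let a ratio be followed from block to block. ACT1 gave −1.76 ± 1.37 after global loess and −1.10 ± 1.15 after the fit per block (SD over 120 usable spots), a spread many times that of repeat spots, whose SD had a median of 0.217 over genes after global loess. Because ACT1 was itself low, a control is set here both against ACT1 in its own block and against the median of all measured genes on that scale, 1.77. The stress-induced Hsp70 SSA4 stood at 3.07 ± 1.08 (SD over 35 blocks) and the γ-tubulin gene TUB4 at 2.15 ± 1.17 (SD over 21 blocks), both above that median. The ribosomal protein gene RPL32, at 0.98 ± 0.846 over 44 blocks, and the polyubiquitin gene UBI4, at 0.78 ± 0.916 over 42, lay below it. SSA4 and TUB4 were also the dimmer of these controls in W303, and the part of spot brightness in the split was not tested. Median net intensities in W303 were 391.5 for SSA4 and 340.25 for TUB4, within the middle tertile. They were 5760.5 for RPL32 and 3432.5 for UBI4, within the brightest, which holds 1489 of the 2117 measured genes. After global loess TUB4 stood at 1.05 ± 0.41, near the middle tertile median of 1.08. SSA4, at 1.53 ± 0.70, lay above it. Both SDs are over usable spots from many blocks and include differences between blocks. RPL32 and UBI4 lay below the brightest tertile median of 0.0065. Without normalization the differences from ACT1 were 2.16 ± 1.18 for SSA4 and 1.04 ± 1.23 for TUB4, so the TUB4 value depends on the normalization. Usable spots numbered 89 for SSA4 and 39 for TUB4, of 144 each, and the blocks without one are left out. With every found spot kept, above background or not, the differences from ACT1 after global loess were 3.17 ± 0.96 for SSA4 over 48 blocks. For TUB4 they were 2.55 ± 1.12 over 42 blocks. Leaving out the filter on bdf1Δ signal thus did not lower these values. The blocks are parts of 1 hybridisation and not replicates. The gene probe of RPL32 gave −0.81 and 0.04 and was not called. The UBI4 controls are spelled UB14 on the array.

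**Figure D5:**
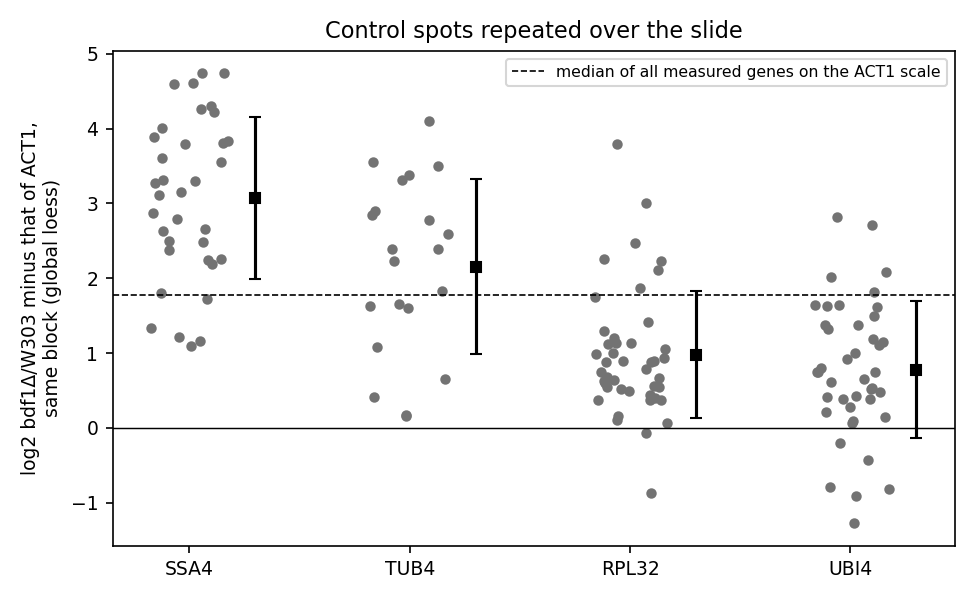
Log2 ratio of bdf1Δ over W303 of 4 control genes minus that of ACT1 in the same printing block, after global loess. Each grey point is a block with usable spots of both genes, the dashed line is the median of all measured genes on the same scale (1.77), and squares with bars are the mean and SD over blocks, 3.07 ± 1.08 for SSA4 and 0.78 ± 0.916 for UBI4.

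Where bdf1Δ gave no signal, only a bound can be stated. In 1188 genes 0 spots exceeded background in bdf1Δ while at least 2 did in W303, and 762 of these genes lie in the 11 weak blocks. Taking the smaller bound of the 2 fits, 10 of the 1188 were at least 2-fold lower in bdf1Δ. THI13, a thiamine synthesis gene with near-identical copies, gave 35, 49.5 and 33.5 in bdf1Δ and 1884, 2135 and 1966 in W303, so W303 was at least 4.19-fold higher. The proteasome ATPase RPT1 was at least 2.34-fold higher in W303, the S-adenosylmethionine synthetase SAM1 at least 2.28-fold, and cytochrome c (CYC1) at least 2.23-fold. Of 23 measured proteasome and ubiquitin genes 0 were called lower, beside 4.63% of all measured genes. Genes without bdf1Δ signal, such as RPT1, cannot be among the 23, so this count does not show whether RPT1 stands alone. Of the 40 on the array, 12 had 0 spots above background in bdf1Δ, and 10 of these had at least 2 in W303. PRE6 (1.19 and 2.59) and PRE7 (1.26 and 1.04) were called higher, 8.70% beside 7.84% of all measured genes. RGI1 was at least 2.25-fold higher in W303 but lies in 1 of the 11 weak blocks. The reverse pattern was seen in 1 gene, the kinase KIN2, at least 1.26-fold higher in bdf1Δ. On the other 4 arrays, 2680 genes exceeded background in bdf1Δ on every array, and 1066 of these did not do so here. A missing bdf1Δ signal on this array is therefore no measure of absent expression.

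The 5 highest and 5 lowest genes can be set beside the other comparisons, which share bdf1Δ as a strain. Values of those arrays follow global loess alone. They need at least 2 found spots above background in at least 1 channel, so measured has a wider meaning in this paragraph. SPS100 gave −0.70 ± 0.19 in bdf1Δ+HAL2 over bdf1Δ and −1.05 ± 0.08 in bdf1Δhda1Δ over bdf1Δ (SD over 2 arrays of exchanged dyes). PAI3 gave −1.12 ± 0.03 and −0.45 ± 0.12 in the same order. GPG1 gave −0.07 ± 0.14 and −0.41 ± 0.11, IZH1 gave −0.12 ± 0.19 and 0.45 ± 0.17, and FLO11 was not measured in full in either pair. CCW12 gave 0.69 ± 0.16 and 0.53 ± 0.26. RPL17B gave 0.47 ± 0.28 and 0.0001 ± 0.13, and RPL20A gave 0.37 ± 0.003 and −0.06 ± 0.014. SNZ1 gave −0.33 ± 0.27 in bdf1Δ+HAL2 and was not measured in bdf1Δhda1Δ, while TMA10 gave −0.82 ± 0.06 and 1.27 ± 0.13. No relation between the comparisons was computed.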

How the data were processed

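One array of bdf1Δ against W303 under salt was used, with the 4 others for detection and side-by-side values. Labelling followed linear RNA amplification and Klenow labelling, per the labels. Spot intensity and local background intensity in each channel stand in the deposited scanner files, per the file headers. A separate table deposited by the authors holds a linear ratio per probe, with a median of 0.195 and hence not centred. It served as an alternative. What software read the images is not given in the sources used here.

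Spot and background medians were corrected by normexp (offset 50) and normalized by global and by print-tip loess, with weight 0 for control spots and spots not found (limma 3.58.1, R 4.3.3). Net intensity is the spot median minus the background median. Calls and figures were made in Python 3.11.15 with pandas 2.3.3, NumPy 2.4.6 and matplotlib 3.10.9. The normalization was also run on simulated data with a constant offset per block. Those data held no trend within blocks, so the run does not show how well the fits work on this array. For bounds, the brighter strain's level was divided by whichever was higher, the level of the dim spots or the lowest level counted as above background in that channel, after loess. A bound is an estimate that holds for these 2 fits only.

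Of 6388 probe names 5849 matched a locus tag and 38 a synonym in the R64 gene table, and 501 matched none. Named genes are the 25 highest and 25 lowest calls, called members of 45 gene lists, the 10 highest bounds each way and the targeted genes with ACT1. Uncalled list members and genes next to the threshold were named after their values were seen. The members, lists and rules were chosen with earlier results of these data known, and the Ty list after its values were seen. The alternatives changed the normalization, background, spot filter, fold and source of values.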

Additional observations from a re-analysis of the deposited data

How the results depend on the processing

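The counts of 166 higher and 98 lower genes depend on the normalization. Global loess alone gave 559 and 280, the fit per block alone 213 and 169, and a smooth surface over spot position in place of the fit per block 172 and 248. The surface kept 128 of the 166 and 98 of the 98, while median centring, with 245 and 92 in all, kept 152 and 54. Centring each block on its ACT1 spots gave 440 and 16, of which 160 and 12 were among the main calls, and moved the median of all measured genes to 1.77, while removing only the block deviations of ACT1, chosen after seeing the data, gave 221 and 187. The authors' deposited ratio gave 260 and 241, of which 103 and 68 were among the main calls. A 1.5-fold threshold gave 406 and 233. Leaving out each repeat spot in turn gave 134 to 162 higher and 94 to 105 lower genes. The other alternatives stayed within 1.5 times the main counts. The causes were not tested.

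Of 1971 values of 127 named genes, 1565 moved by less than the SD of repeat spots, 363 moved further and 43 changed sign under at least one fit, 27 of them under ACT1 centring. There the log2 ratios became 1.08 for RPL19A, 0.10 for ENP1, 0.31 for ARO4, 0.22 for ENA1, 0.19 for BAP3, 0.75 for YDR210C-C, 0.76 for YDR210C-D, 0.15 for HXT7, 1.64 for GNP1, 0.91 for PMP2, 1.42 for PDA1, 0.28 for RPS2, 1.504 for RPS25A, 0.051 for ENO2, 0.31 for PHO86, 0.37 for HSP150, 0.0030 for ERG20, 0.23 for OPI3, 1.06 for HOM6, 1.49 for ATP7, 0.81 for NUP100, 0.18 for ERG27, 1.16 for HMX1, 0.026 for SCW10, 0.14 for SSB2, 1.16 for IDH2 and 0.74 for SER1. With the authors' ratio they became −0.016 for PRE7, −0.57 for HHF1, −0.15 for FES1, −0.018 for ERG25, 0.072 for ENO2, −0.41 for MSS11 and −0.094 for AFT2. With block deviations of ACT1 removed they became −1.85 for IMG1, −1.31 for PAU3, −0.45 for FMP45, −0.58 for IZH1, −0.79 for GRX2, −0.81 for HSP31, −1.06 for HYP2 and −0.70 for PHD1. With median centring RPS6A became 0.20. Of 698 list medians 66 moved.

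No paired analysis was possible because the comparison has 1 array and no replicate numbers. Signal over background in bdf1Δ limits the comparison, with 4271 genes not measured in both strains.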

Other observations

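Several groups not described above held called genes. In ribosome biogenesis 36 of 72 genes were measured, of which 4 were higher and 1 was lower, beside 7.84% and 4.63% of all measured genes, and in the brightest tertile by W303 intensity 1 of 22 was higher and 1 was lower. The RNA helicase DBP7 (1.91 and 2.36), UTP9 of the small-subunit processome (1.75 and 2.09), NOP15 (1.95 and 1.36) and RLP7 (1.11 and 2.24) were higher, and ENP1 (−1.54 and −1.59) was lower. The list median of 0.31 and 0.29 lay near the 0.42 and 0.09 of all measured genes. These counts hold for the list only, which does not cover the process. The called genes UTP18 and BFR2, which were higher, and REH1, which was lower, lie outside it, for example. In phosphate metabolism the acid phosphatase PHO12 (−1.42 and −1.97) and PHO86 (−1.33 and −1.20) were lower among 12 measured of 27, and both lie among the 11 members in the brightest tertile. The ammonium permease MEP3 (2.23 and 1.77) was higher, while the amino acid permeases BAP3 (−2.62 and −1.34) and GNP1 (−1.37 and −1.07) were lower, the last 2 in the brightest tertile. The histone H4 gene HHF1 (1.54 and 1.59) was higher among 7 measured histone genes of 10, with 0 higher among the 4 in the brightest tertile. In autophagy 7 genes of 29 were measured and 0 were called in either direction by the 2-fold rule, and the V-ATPase gave 6 of 19 and 0.

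The array carries 8 sets of control spots named Y1 to Y8, whose content the sources used here do not describe. Their mean log2 ratio after global loess ran from −0.96 ± 0.515 for Y6 to 2.99 ± 0.916 for Y7 (SD over 30 and 99 usable spots).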
